A study of Mus musculus with 5 samples.

Results

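The Hox genes described here are all genes named Hoxa, Hoxb, Hoxc or Hoxd followed by digits, without the antisense and overlapping transcripts of the same loci. The rule found 39 genes, in 40 of the 31055 annotated features because Hoxd4 has 2 identifiers. Hox genes encode homeodomain transcription factors that lie in 4 clusters, and genes at the same place in each cluster form a paralog group. In the limb bud the groups toward the 5′ end pattern the limb from the trunk outward, with Hox10 genes tied to the upper, Hox11 genes to the middle and Hox13 genes to the distal segment. Connective tissue cells of the adult are known to keep a Hox pattern that records the place in the body from which they came. The hindlimb itself is marked by Pitx1 and Tbx4, whereas Tbx5 marks the forelimb.

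Single-cell transcriptomes were obtained from GFP+ cells sorted from the skeletal muscle of Prx1Cre;mTmG mice on a C57Bl/6 background, in which a Cre driven by the Prx1 limb enhancer turns cells of limb bud mesenchyme origin, and their descendants, from membrane Tomato to membrane GFP. All 5 groups share this genotype and sort: uninjured muscle (d0), day 3 and day 5 after a tibial fracture (d3 and d5 fracture), and day 3 and day 5 after polytrauma, in which the fracture is joined by injury to the surrounding muscle (d3 and d5 polytrauma). The study dissected the muscle around the tibia and did not collect periosteum or bone marrow. Small clusters led by the bone gene Bglap2 (65 cells at d0) or by blood cell genes (17 and 88 cells at d3) were still found. Whether these came from other tissues was not tested. Each group was 1 library of pooled mice, so no spread between animals can be given, no difference was tested, and every interval given is a 95% interval for counting error only. The deposited labels of 2 libraries were exchanged here: the library labelled d5 fracture was used as d3 polytrauma and the library labelled d3 polytrauma as d5 fracture, following the cell numbers of the study, and every direction that involves these libraries rests on that choice.

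The libraries held 4632 cells at d0, 5589 at d3 fracture, 6201 at d3 polytrauma, 1468 at d5 fracture and 11941 at d5 polytrauma, with median UMI counts (distinct transcript molecules counted per cell) of 3640, 17963, 15688, 34949 and 15753. A UMI of the GFP transgene was found in 97.3% to 99.2% of cells. The d0 and d3 libraries shared 405 to 525 cell barcodes pair by pair and the d5 libraries shared 944, whereas a d5 library shared at most 3 with an earlier one, so the step from d3 to d5 cannot be told apart from this split of the libraries. Dividing cells, with UMIs of at least 2 of 8 division genes, were 0.173% of cells at d0, 53.9% to 56.6% at d3 and 37.3% to 53.8% at d5.

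The Hoxa cluster lies on chromosome 6 on the minus strand, and the Hoxb, Hoxc and Hoxd clusters on the plus strand of chromosomes 11, 15 and 2 (GRCm38). Hoxc5 and Hoxc10 share 166 exonic bases, and Hoxd3 and Hoxd4 share 388, so values of these 4 genes are uncertain to that extent. Promoter sequences from RefSeq (GRCm38.p6; 300 bases across the transcript start, most of them before it) matched 22 of the 39 genes, in 24 promoters. The promoters shown are those of a gene abundant in every library (Hoxa10), of a gene that set tenocyte-like cells apart (Hoxd10), of a gene found almost only at d5 polytrauma (Hoxb8) and of a gene without a single UMI (Hoxd12). They are written in lower case with each CpG dinucleotide, the site of DNA methylation, in capitals.
Hoxa10, chr6:52240805-52241104, minus strand: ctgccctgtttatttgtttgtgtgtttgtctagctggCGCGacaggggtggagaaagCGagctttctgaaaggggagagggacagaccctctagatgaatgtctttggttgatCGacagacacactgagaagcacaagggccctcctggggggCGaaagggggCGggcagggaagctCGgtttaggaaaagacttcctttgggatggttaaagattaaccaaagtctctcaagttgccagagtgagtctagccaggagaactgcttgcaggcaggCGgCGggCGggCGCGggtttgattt
Hoxd10, chr2:74691641-74691940, plus strand: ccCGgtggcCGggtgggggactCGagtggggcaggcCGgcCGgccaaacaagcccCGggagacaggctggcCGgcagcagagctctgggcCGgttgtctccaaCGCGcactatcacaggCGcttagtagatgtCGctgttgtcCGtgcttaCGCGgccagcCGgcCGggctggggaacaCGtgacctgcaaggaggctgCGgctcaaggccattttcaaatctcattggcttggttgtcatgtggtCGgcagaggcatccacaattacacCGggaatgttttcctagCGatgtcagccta
Hoxb8, chr11:96281655-96281954, plus strand: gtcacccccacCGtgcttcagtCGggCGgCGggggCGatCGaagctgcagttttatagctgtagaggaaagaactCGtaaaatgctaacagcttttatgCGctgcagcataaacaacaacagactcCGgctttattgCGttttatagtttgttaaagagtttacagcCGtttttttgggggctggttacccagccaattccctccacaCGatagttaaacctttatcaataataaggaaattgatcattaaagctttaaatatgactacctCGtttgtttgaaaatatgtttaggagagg
Hoxd12, chr2:74674763-74675062, plus strand: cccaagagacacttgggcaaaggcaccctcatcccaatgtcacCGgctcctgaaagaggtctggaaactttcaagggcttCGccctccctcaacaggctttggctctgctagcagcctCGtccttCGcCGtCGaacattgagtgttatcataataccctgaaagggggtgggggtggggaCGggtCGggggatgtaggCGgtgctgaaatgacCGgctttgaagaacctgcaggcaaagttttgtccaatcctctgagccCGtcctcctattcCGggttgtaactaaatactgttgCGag
The promoter of Hoxd10 held 22 CpG dinucleotides, those of Hoxb8 and Hoxd12 held 13 each and that of Hoxa10 held 12. The median was 14.5 over the 24 Hox promoters and 7 over all 32851 promoters of the table, and 20 of the 24 Hox promoters lay above the latter. The Hoxa10 promoter shown is 1 of 2 in the table, and the other held 21. The motif TGATTNAT, a site bound by Hox proteins together with partner homeodomain proteins, was found on either strand in 8.33% of Hox promoters (2 of 24) and in 3.22% of all promoters, and in none of the 4 shown.

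The uninjured cells carried mostly transcripts of posterior Hox genes, led by group 10. Levels are given in CPM (the UMIs of a gene scaled to the same total in each library), which for 3′ libraries are not divided by gene length. Hoxc10 was at 36.8 CPM (34.0 to 39.8) at d0, 17.5 at d3 fracture, 15.6 at d3 polytrauma, 33.3 at d5 fracture and 27.4 at d5 polytrauma. Hoxa10 was at 33.8 CPM (31.1 to 36.6) at d0, 6.74 at d3 fracture, 5.54 at d3 polytrauma, 36.3 at d5 fracture and 16.2 at d5 polytrauma. Both were thus lowest in the d3 libraries. Hoxd8, the leading gene of the middle groups, was at 12.6 CPM at d0, 9.33 at d3 fracture, 6.37 at d3 polytrauma, 18.9 at d5 fracture and 22.3 at d5 polytrauma. These 3 were the only Hox genes to reach 20 CPM in any library. At d0 the intervals of Hoxc10 and Hoxa10 overlapped, as did those of Hoxd8 and Hoxa9 (12.3 CPM), while Hoxa10 and Hoxd8 were apart.

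**Figure D1:**
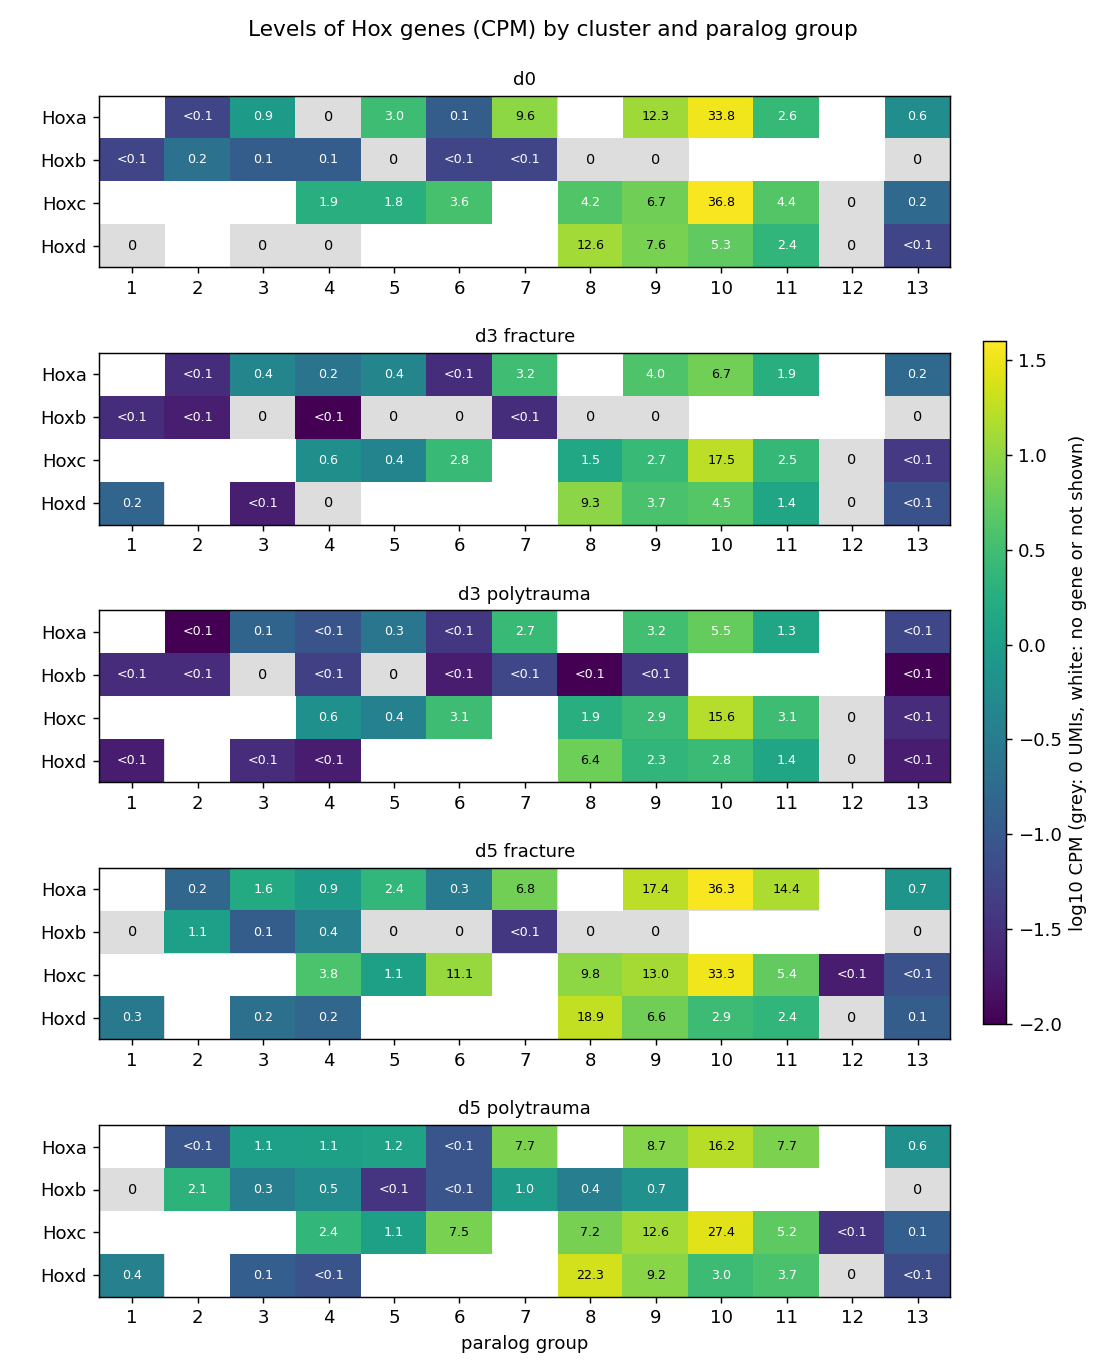
Levels of Hox genes in each of the 5 libraries, in CPM, with Hox clusters as rows and paralog groups 1 to 13 as columns (colour: log10 CPM; grey: 0 UMIs; white: no such gene or not shown). The bright block runs over groups 7 to 11 of Hoxa, Hoxc and Hoxd, with Hoxc10 at 36.8 CPM at d0. The Hoxb row is low throughout and highest at d5 polytrauma.

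Groups 9 to 11 together gave 73.7% of all Hox UMIs at d0, 69.4% at d3 fracture, 70.2% at d3 polytrauma, 68.5% at d5 fracture and 61.8% at d5 polytrauma. Group 10 alone gave 50.1% at d0 and 30.5% at d5 polytrauma. The share of groups 1 to 4, whose genes act toward the head and trunk, was 2.65% at d0 and 5.85% at d5 polytrauma. The posterior groups therefore led in all 5 libraries, with the smallest share at d5 polytrauma.

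Groups 12 and 13, which act in the distal limb, were nearly silent. Hoxd12 had 0 UMIs in all 5 libraries, which allows at most 0.0148 CPM at d5 polytrauma on a floor of 3 counts. Hoxc12 had 1 UMI at d5 fracture and 7 at d5 polytrauma. Hoxa13 was the most abundant of the 2 groups, at 0.573 CPM at d0, 0.170 at d3 fracture, 0.0581 at d3 polytrauma, 0.733 at d5 fracture and 0.648 at d5 polytrauma. Hoxc13 had 3, 4, 3, 4 and 24 UMIs in the same order of libraries, Hoxd13 had 1, 8, 2, 6 and 14, and Hoxb13 had 1 UMI, at d3 polytrauma.

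The Hoxb cluster was low in every library and highest at d5 polytrauma. Its 10 genes gave 0.416% of Hox UMIs at d0, 0.139% at d3 fracture, 0.446% at d3 polytrauma, 0.822% at d5 fracture and 3.37% at d5 polytrauma. In CPM, the summed level was 0.631 at d0, 0.0901 at d3 fracture, 0.242 at d3 polytrauma, 1.58 at d5 fracture and 5.15 at d5 polytrauma. Of the 39 genes, 29 had at least 1 UMI at d0, 30 at d3 fracture, 35 at d3 polytrauma, 32 at d5 fracture and 36 at d5 polytrauma. The libraries held 17437190, 99943787, 103287049, 51864740 and 202233564 UMIs in the same order. A larger library can show more genes by its size alone, so these counts are not evidence that more Hox genes were active.

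Per cell, Hox transcripts were sparse. At least 1 Hox UMI was found in 37.8% of cells at d0, 58.5% at d3 fracture, 51.2% at d3 polytrauma, 94.9% at d5 fracture and 81.9% at d5 polytrauma. This order follows depth in part: with each cell thinned to 2000 UMIs, which left out 30 to 744 shallower cells per library, the shares were 24.1%, 12.6%, 10.4%, 34.6% and 26.2%. The d3 libraries were then lowest and d5 fracture highest. Free RNA was gauged in blood-derived cells, which were not expected to carry limb Hox transcripts: at d3 polytrauma 5 of 88 hematopoietic-like cells (5.68%, exact interval 1.87 to 12.8; median 3750 UMIs) had a Hox UMI, against 26.2% of 221 other cells of like depth (20.6 to 32.6; median 3650 UMIs). At d3 fracture the shares were 11.8% of 17 cells and 29.6% of 382.

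The comparison of d3 with d0 asked how Hox levels stood in the early response to injury. Over all Hox genes, the summed level was 152 CPM at d0 (146 to 157), 64.6 at d3 fracture (63.0 to 66.2) and 54.3 at d3 polytrauma (52.9 to 55.7). A gene was counted as past the fold at 2-fold or more with at least 20 UMIs in both libraries together. Shares of all genes are given for this count in CPM over all kept cells. They do not carry over to counts under other scalings, fold limits or sets of cells. At d3 fracture 12 of the 20 Hox genes with enough UMIs were lower past the fold and 0 were higher, where 33.5% of all genes were lower and 13% higher. At d3 polytrauma 12 of 18 were lower and 0 higher, where 32.5% of all genes were lower and 13.1% higher. The d0 library is the control of both comparisons.

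The median log2 ratio of the Hox genes was −1.08 at d3 fracture and −1.37 at d3 polytrauma, where that of all genes was −0.45 and −0.43. Measured against these medians of all genes, 8 and 9 Hox genes were past the fold, all lower. No share of all genes is given for these counts or for the scaling that follows. With median-of-ratios scaling, the count was 7 lower and 1 higher at d3 fracture and 8 lower at d3 polytrauma. The medians of all genes were then 0.13 and 0.098. The strongest differences were in the Hoxa cluster. Hoxa5, a middle-group gene, was at 3.04 CPM at d0, 0.430 at d3 fracture and 0.261 at d3 polytrauma, or log2 −2.82 (−3.44 to −2.21) and −3.54 (−4.26 to −2.84). Hoxa10 was lower by 5.01-fold at d3 fracture (log2 −2.32, −2.49 to −2.16) and by 6.10-fold at d3 polytrauma (log2 −2.61, −2.78 to −2.44).

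Hoxc5, Hoxa7, Hoxa9, Hoxc4, Hoxc8, Hoxc9, Hoxd9, Hoxc10 and Hoxa3 were also lower past the fold in both d3 libraries. Hoxa13 joined them at d3 fracture (log2 −1.75). Hoxc6, Hoxc11, Hoxd8, Hoxd10, Hoxd11 and Hoxa11 did not pass the fold in either, with log2 ratios of −0.21 to −0.99. For Hoxc6 the interval held no change in both (−0.77 to 0.06 and −0.60 to 0.21). Hoxa4 had 0 UMIs at d0 and 0.240 CPM at d3 fracture, at least 1.40-fold higher on a floor of 3 counts in the d0 library. Here and below, such ratios put 3 counts in place of 0 and leave out counting error on the other side.

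Division genes moved with this step: all 8 were higher past the fold in both d3 libraries, with a median log2 ratio of 5.07 at d3 fracture and 5.06 at d3 polytrauma. With dividing cells left out, 10 Hox genes were still lower past the fold at d3 fracture and 12 at d3 polytrauma. Within the clusters named FAP/MP-like alone, the counts were 6 and 8. Hoxa7 fell short of the fold there at d3 fracture, and the other members are not listed. No share of all genes is given for these sets of cells, so these counts have no background beside them. The make-up of the libraries also differed. Clusters named pericyte-like were 16.2% of cells at d0, 0.716% at d3 fracture and 0.887% at d3 polytrauma. The part of this shift in the lower Hox levels was not tested. In sums over a library, fewer cells with a transcript and less of it per cell cannot be told apart.

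**Figure D2:**
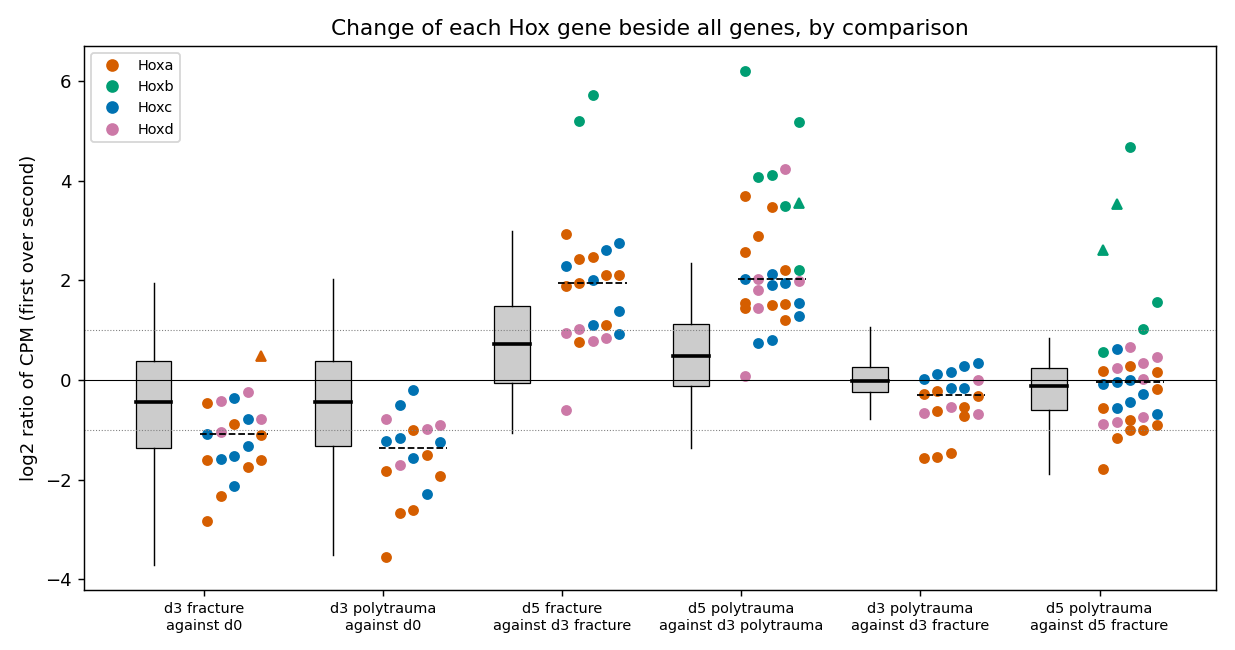
Log2 ratios of CPM for the 6 comparisons. Coloured points are Hox genes with at least 20 UMIs (triangles: 0 UMIs in 1 library, drawn at the floor of 3 counts), dashed lines their medians, and grey boxes the middle of all genes with whiskers at percentiles 5 and 95; Hox medians of −1.08 and −1.37 at d3 turn to 1.95 and 2.03 from d3 to d5.

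From d3 to d5 most of the Hox genes with enough UMIs, 23 of the 39 after fracture and 31 after polytrauma, stood higher. The summed level was 192 CPM at d5 fracture (189 to 196) and 153 at d5 polytrauma (151 to 154). At d5 fracture 17 of 23 Hox genes were higher past the fold than at d3 fracture and 0 were lower, where 40.3% of all genes were higher and 5.45% lower. At d5 polytrauma 28 of 31 were higher than at d3 polytrauma and 0 lower, where 28.8% of all genes were higher and 7.49% lower. The Hox medians were 1.95 and 2.03 on the log2 scale, and those of all genes 0.73 and 0.48. Measured against the latter, 14 Hox genes at d5 fracture (13 higher, 1 lower) and 24 at d5 polytrauma (all higher) were past the fold. These ratios share the d3 libraries with the comparisons against d0. Within FAP/MP-like clusters alone, 13 and 24 Hox genes were past the fold, and with each cell thinned to 2000 UMIs 10 and 15 were. The shares of all genes above apply neither to these counts nor to those measured against the medians.

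Hoxa11, a group that patterns the middle segment of the limb, was at 1.88 CPM at d3 fracture and 14.4 at d5 fracture, 7.65-fold higher (log2 2.93, 2.70 to 3.17). It was at 1.30 CPM at d3 polytrauma and 7.72 at d5 polytrauma, 5.95-fold higher (log2 2.57, 2.32 to 2.84). At d0 it was at 2.58 CPM, so both d5 levels were above d0 as well. Hoxc8 was at 1.46 and 1.86 CPM in the d3 libraries and at 9.78 and 7.19 in the d5 libraries, with 4.19 at d0.

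Hoxb2 had the largest ratio, on few UMIs at d3: 2 UMIs at d3 fracture and 55 at d5 fracture (log2 5.73, 3.81 to 8.81), and 3 at d3 polytrauma and 434 at d5 polytrauma (log2 6.21, 4.65 to 8.49). Hoxd10 was the exception to the direction. It was at 5.28 CPM at d0, 4.46 at d3 fracture and 2.95 at d5 fracture (log2 −0.60 from d3, −0.87 to −0.33). After polytrauma it was at 2.81 CPM at d3 and 2.98 at d5 (log2 0.09, −0.12 to 0.29). Hoxc10 was below the fold in both, with log2 ratios of 0.93 and 0.81.

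**Figure D3:**
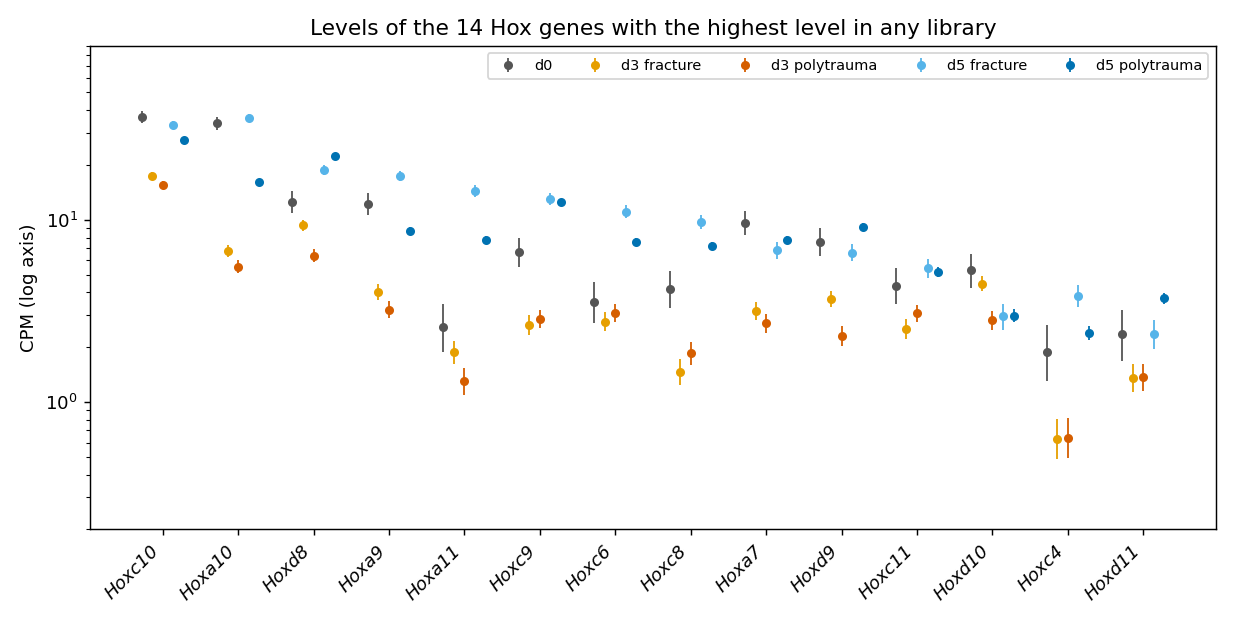
Levels (CPM, log axis) of the 14 Hox genes with the highest level in any library, by library; bars are exact 95% Poisson intervals for counting error. For most genes the d3 points lie lowest, as for Hoxa10 at 6.74 and 5.54 CPM. For Hoxd10 the d3 fracture point, at 4.46 CPM, lies above both d5 points, at 2.95 and 2.98 CPM.

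The comparison of polytrauma with fracture at the same day asked whether added muscle injury went with another Hox pattern. At d3, 3 of 20 Hox genes were lower past the fold after polytrauma (Hoxa3, Hoxa4 and Hoxa13) and 0 were higher, where 3.14% of all genes were lower and 5.45% higher. These 3 rested on 6 to 43 UMIs per library. With each cell thinned to 2000 UMIs 0 Hox genes were past the fold, and at a minimum of 50 UMIs 1 was. The Hox median was −0.31 and that of all genes −0.01. Hoxd9 and Hoxd10 stood at 3.69 and 4.46 CPM after fracture and at 2.31 and 2.81 after polytrauma, short of the fold (log2 −0.67 for both).

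At d5, 5 of 33 Hox genes were higher past the fold after polytrauma and 2 were lower, where 3.70% of all genes were higher and 14.7% lower. The 5 higher genes were all in the Hoxb cluster: Hoxb2, Hoxb3, Hoxb7, Hoxb8 and Hoxb9. Hoxb2 was at 1.06 CPM at d5 fracture and 2.15 at d5 polytrauma. Hoxb7 had 2 UMIs at d5 fracture (0.0386 CPM) and 198 at d5 polytrauma (0.979 CPM), a log2 ratio of 4.67 (2.79 to 7.72). Hoxb8 and Hoxb9 had 0 UMIs at d5 fracture and 71 and 135 at d5 polytrauma, at least 6.07-fold and at least 11.5-fold higher on the floor of 3 counts. The 2 lower genes were Hoxa6, on 16 and 18 UMIs, and Hoxa10, at 36.3 CPM after fracture and 16.2 after polytrauma (log2 −1.16, −1.25 to −1.08). Hoxa5 and Hoxa9 lay just short of the fold at log2 −0.99 each, and over all 33 Hox genes the median was −0.04, with −0.12 over all genes. Median-of-ratios scaling gave 5 higher and 1 lower, thinning to 2000 UMIs per cell 1 higher and 3 lower, and a 1.5-fold limit 7 higher and 10 lower. Within FAP/MP-like clusters alone 9 Hox genes were higher past the fold and 7 lower. With dividing cells left out, 6 were higher and 5 lower. No share of all genes is given for these sets of cells.

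At d5 polytrauma 529 of 11941 cells (4.43%) had a UMI of any Hoxb gene. At d5 fracture 31 of 1468 cells had one (2.11%, exact interval 1.44 to 2.98). The share was 0.194% at d0, 0.161% at d3 fracture and 0.371% at d3 polytrauma. Of Hoxb6, Hoxb7, Hoxb8 or Hoxb9, 265 cells of d5 polytrauma had a UMI (2.22%, exact interval 1.96 to 2.50). This compares with 1 cell at d0 (0.0216%), 3 at d3 fracture (0.0537%) and 11 at d3 polytrauma (0.177%). At d5 fracture it was 2 of 1468 cells (0.136%, 0.0165 to 0.491). All UMIs of Hoxb7, Hoxb8 and Hoxb9 at d5 polytrauma lie in the 265 cells by their choice, whereas 271 of the 434 Hoxb2 UMIs and 48 of the 69 Hoxb3 UMIs lay outside them. Of the 265 cells, 117 lay in 1 cluster of 726 cells led by Krt19, whose members were FAP/MP-like by their markers, which is 16.1% of that cluster. The next cluster, of dividing cells led by Ccne2, held 62, or 3.34% of its 1858 cells. The clusters were computed without Hox and limb identity genes among the variable genes, and this cluster and these cells were singled out after their values were seen. Without the Krt19-led cluster, d5 polytrauma against d5 fracture had 3 Hox genes higher past the fold and 3 lower.

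In the Krt19-led cluster the summed Hoxb level was 27.0 CPM, against 3.32 in all other cells of the library (log2 3.02, 2.84 to 3.20). Hoxb9 was at 4.54 against 0.343 CPM and Hoxc8 was higher by a log2 ratio of 1.31 (1.11 to 1.51). The 5′ genes of the Hoxd cluster were lower there: Hoxd9 was at 3.00 against 9.70 CPM, Hoxd10 at 0.511 against 3.19, and Hoxd11 at 0.575 against 3.98. Hoxc10 was at 32.8 against 26.9 CPM, so the leading posterior gene was not missing from these cells. Tbx5, the forelimb gene, had 11 UMIs in the cluster and 14 in all other cells (0.703 against 0.0750 CPM), while Pitx1 was at 10.6 against 13.8 CPM and Shox2, a limb skeletal regulator, at 109 against 50.8 CPM.

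The 148 Hoxb6 to Hoxb9 cells outside that cluster had a like pattern in genes that did not choose them. In them Hoxc8 was at 35.3 CPM, against 5.85 in the other cells outside the cluster, and Hoxd11 had 1 UMI (0.262 against 4.05 CPM). Hoxb2 was at 27.5 against 0.952 CPM. GFP transgene levels were 2707 and 2553 CPM in these 2 sets, so the sorted label was present in both. The median UMI count was 24348 in the former and 15215 in the latter, and the part of depth in the choice of cells was not tested.

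**Figure D4:**
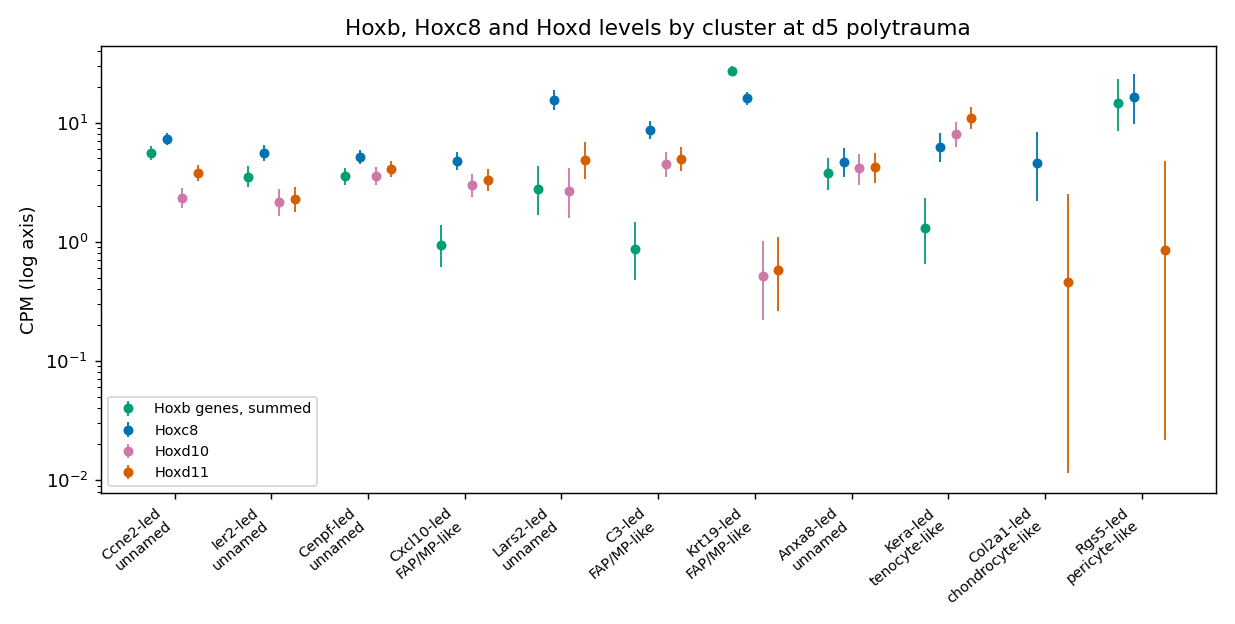
Levels (CPM, log axis, exact 95% Poisson intervals) of the summed Hoxb genes, Hoxc8, Hoxd10 and Hoxd11 in the clusters of the d5 polytrauma library, each named by its leading gene; points with 0 UMIs are not drawn. The Krt19-led cluster is highest in summed Hoxb genes at 27.0 CPM and low in Hoxd10 and Hoxd11 at 0.511 and 0.575 CPM.

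Cell classes differed in their Hox genes within a library, a comparison that does not rest on the sample labels. Clusters were named from fixed markers by a naming rule that was revised after the clusters were seen: FAP/MP-like (fibro-adipogenic and mesenchymal progenitors; 325 to 3697 cells per library), tenocyte-like (175 to 511 cells in 4 libraries), pericyte-like (38 to 750 cells) and chondrocyte-like (292 and 198 cells at d5). Most cells of the injured libraries were in clusters that stayed unnamed. The values below set each class against FAP/MP-like cells of the same library. At d5 polytrauma these include the 726 cells of the Krt19-led cluster, which had higher Hoxb and Hoxc8 and lower Hoxd9, Hoxd10 and Hoxd11 levels.

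In tenocyte-like cells Hoxd10 was higher past the fold in 4 of 4 libraries. It was at 18.5 against 3.01 CPM at d0 (log2 2.62, 1.87 to 3.37), 11.7 against 3.66 at d3 fracture, 4.74 against 2.24 at d3 polytrauma and 8.03 against 2.74 at d5 polytrauma. Hoxa9, Hoxd8 and Hoxd9 were also higher in 4 of 4 libraries, with log2 ratios of 0.18 to 1.79, 0.03 to 0.67 and 0.29 to 2.13. They were past the fold in 2, 0 and 1 of these libraries, with the interval above no change in 2, 2 and 3. Hoxa10 and Hoxc10, the leading genes of the libraries, had no common direction, with log2 ratios of −0.73 to 1.16 and −0.50 to 0.63. Pitx1 was higher in 4 of 4 libraries (log2 0.47 to 1.25), past the fold in 2 and with the interval above no change in 3. It was at 5.60 against 2.35 CPM at d0 and 26.8 against 12.2 CPM at d5 polytrauma.

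In pericyte-like cells Hoxa7, a middle-group gene, was higher past the fold in 5 of 5 libraries, with log2 ratios of 1.11 to 4.81. It was at 20.8 against 7.14 CPM at d0, 16.4 against 3.73 at d3 fracture, 29.2 against 1.04 at d3 polytrauma, 21.7 against 10.0 at d5 fracture and 22.2 against 5.94 at d5 polytrauma. The summed level of groups 1 to 4 was higher past the fold in 5 of 5 libraries (log2 1.16 to 2.35), with the interval above no change in 3 of them. Hoxc6 was higher in 5 of 5, with the interval above no change in 1. The summed levels of groups 5 to 8 (log2 0.71 to 1.66) and of all Hox genes (log2 0.39 to 1.31) were higher in 5 of 5 libraries. Both had the interval above no change in all 5, and were past the fold in 2 and 1. Hoxa9 was higher past the fold in 4 of 5 (log2 −0.14 to 2.92). Within the middle groups, Hoxd8 was lower in 3 of 5 libraries (log2 −1.31 to 0.54), with no interval away from no change. The summed level of group 8 was lower in 2 of 5 (log2 −1.16 to 0.67). The injured libraries held only 38 to 97 pericyte-like cells, and Hoxa7 rested on 6 to 26 UMIs of these. The class also differed in make-up between libraries, so partly unlike cells were compared. At d0 it was a cluster led by Tagln, with Myh11 and Acta2 among its leading genes. At d3 fracture it was a cluster of 40 cells led by Rgs5. Another d3 fracture cluster, of 65 cells led by Pcp4l1 and Myh11, passed 4 pericyte markers but stayed unnamed for its low depth.

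Hoxd11 was seldom found in pericyte-like cells, with 1 UMI at d0 (0.310 against 2.16 CPM), 1 at d5 polytrauma and 0 in the other libraries. Only 2 of 5 libraries had enough UMIs to compare. It was lower past the fold in these 2, with the interval below no change in 1. In the other libraries too few UMIs were counted for a 0 to show absence. Pitx1 had 0 UMIs in pericyte-like cells of 4 libraries and 3 UMIs at d5 polytrauma (2.56 against 12.2 CPM). At d5 fracture this is at least 4.45-fold lower than the 19.3 CPM of FAP/MP-like cells. Pitx1 had enough UMIs to compare in 3 of 5 libraries and was lower past the fold in these 3. Hoxc10 did not differ past the fold in any of the 5 libraries (log2 −0.05 to 0.26). Hoxa10 varied more between libraries, with log2 ratios of −0.78 to 2.27, past the fold in 1 library, and its interval lay above no change in 2 and below it in 1.

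**Figure D5:**
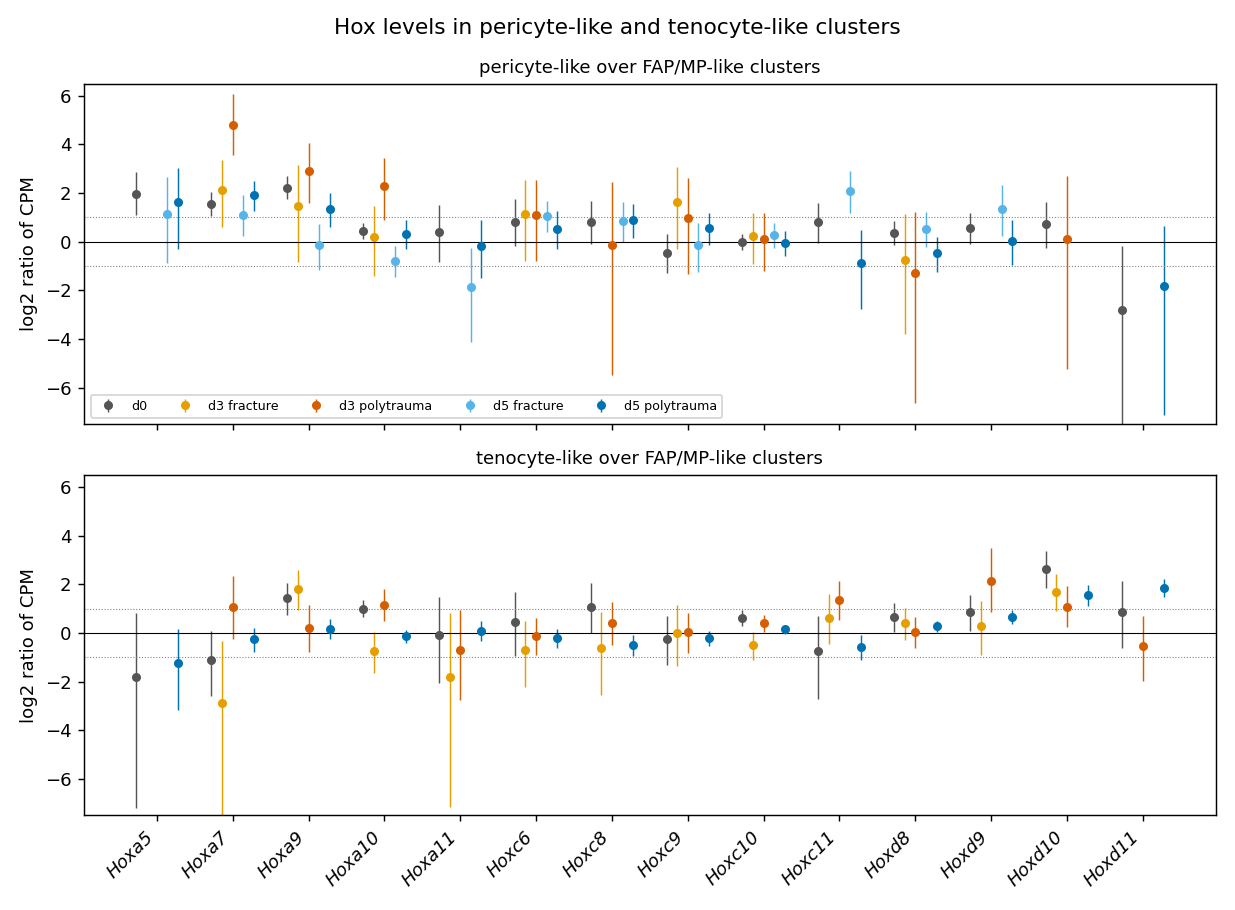
Log2 ratios of CPM of pericyte-like (top) and tenocyte-like (bottom) over FAP/MP-like clusters for 14 Hox genes, by library, with exact 95% intervals for counting error; genes with under 20 UMIs, or 0 in either class, are not drawn, and some bars run off the axis. Hoxa7 lies at 1.11 or above in all 5 libraries in the top panel, and Hoxd10 at 1.08 or above in 4 libraries in the bottom panel.

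Chondrocyte-like cells were present at d5. Their Hoxa10 was lower than in FAP/MP-like cells in both libraries, at 21.0 against 54.6 CPM at d5 fracture (log2 −1.38) and 10.9 against 17.7 at d5 polytrauma (log2 −0.69). Hoxc8 was lower in both (log2 −0.52, −0.90 to −0.13, and −0.95, −2.02 to −0.06). At d5 polytrauma the FAP/MP-like cells include the Krt19-led cluster, itself higher in Hoxc8. The part of that cluster in the ratio was not tested. Hoxd10 and Hoxd11 went opposite ways in the 2 libraries, a difference that was not tested: Hoxd10 was at 3.03 against 0.716 CPM at d5 fracture and had 0 against 162 UMIs at d5 polytrauma. Over all cells of d5 fracture Hoxd10 was at 2.95 CPM. Pitx1 was higher in both (log2 0.51, 0.25 to 0.77, and 1.56, 1.21 to 1.90).

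The Hox11 genes (Hoxa11, Hoxc11 and Hoxd11), used to mark resident cells of the middle limb segment, were summed in the named classes at d0. The sum was 8.39 CPM in tenocyte-like cells and 8.27 CPM in FAP/MP-like cells (log2 0.02, −0.88 to 0.82), and 9.93 CPM in pericyte-like cells (log2 0.26, −0.37 to 0.86). Hoxd11 alone was lower in pericyte-like cells, with 1 UMI against 23 (log2 −2.80, −8.16 to −0.18). At a coarser clustering, in which a cluster of 65 cells led by Bglap2 joined the tenocyte-like class, the summed level was 16.2 CPM on 36 UMIs in that class against 8.28 CPM, and the interval of the ratio lay above no change (log2 0.97, 0.37 to 1.54).

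That unnamed Bglap2-led cluster, chosen after its values were seen, had the highest summed Hox level at d0, at 338 CPM against 124 in FAP/MP-like cells (log2 1.44, 1.19 to 1.69). Bglap2 encodes osteocalcin, a product of bone-forming cells. Hoxa10 was at 103 against 27.5 CPM and Hoxd11 at 18.7 against 2.16 CPM (log2 3.11, 1.74 to 4.32). Hoxa13 had 5 UMIs among these 65 cells and 1 among 3066 FAP/MP-like cells. Pitx1 was at 21.0 against 2.35 CPM.

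FAP/MP-like clusters of d0 also differed among themselves. A cluster of 541 cells with Mme among its leading genes, compared with a cluster of 685 cells led by the interferon-response gene Rtp4, had a summed Hoxa level of 86.3 against 14.3 CPM (log2 2.59, 2.06 to 3.16). Hoxa10 was at 46.1 against 9.52 CPM, while Hoxc10 differed less, at 46.7 against 30.9 CPM (log2 0.59). At d3, the clusters with Pi16, a gene of adventitial fibroblasts, among their leading genes (361 cells after fracture and 705 after polytrauma) had Hoxa10 at 24.7 CPM after fracture and 3.42 after polytrauma (log2 −2.85, −3.68 to −2.09). In them Hoxc8 was alike, at 5.18 and 5.03 CPM (log2 −0.04, −1.04 to 1.03), while Pitx1 was at 2.39 after fracture and 7.73 after polytrauma. Those 2 clusters came from separate clusterings, and both pairs were chosen after their values were seen.

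Other genes of limb identity were measured alongside. Pitx1, the hindlimb gene, was at 2.52 CPM at d0, 2.44 at d3 fracture, 3.43 at d3 polytrauma, 20.1 at d5 fracture and 13.6 at d5 polytrauma. Tbx4 was at 0.516, 0.160, 0.155, 1.48 and 1.20 CPM and Tbx5 at 1.26, 0.0200, 0.0387, 0.463 and 0.124 CPM in the same order. Tbx4 thus stood above Tbx5 in the 4 injured libraries. At d0 Tbx5, the forelimb gene, was the higher, with 22 UMIs against 9, and the intervals of the levels overlapped (0.791 to 1.91 against 0.236 to 0.980 CPM). This overlap alone does not place the difference within counting error, and no interval of their ratio is given. Of 24 limb identity genes, 15 of 22 with enough UMIs were higher past the fold at d5 fracture than at d3 fracture and 0 lower (median log2 1.5), and 15 of 23 were higher and 1 lower at d5 polytrauma (median 1.25), where 40.3% and 28.8% of all genes were higher. Median-of-ratios scaling gave 10 higher and 0 lower, and 10 higher and 1 lower. At d3 against d0, 11 of 22 were lower and 1 higher after fracture, and 9 of 21 lower and 1 higher after polytrauma, where 33.5% and 32.5% of all genes were lower. Median-of-ratios scaling gave 8 lower and 2 higher, and 6 lower and 1 higher. Shox2, a regulator of the upper limb skeleton, was at 27.2 CPM at d0, 10.3 and 13.9 in the d3 libraries, 94.9 at d5 fracture and 55.3 at d5 polytrauma. Prrx1, whose enhancer drives the Cre, was at 134 CPM at d0, 124 and 182 in the d3 libraries and 256 and 275 in the d5 libraries. Between polytrauma and fracture, 1 limb identity gene of 21 was higher and 1 lower at d3, where 5.45% of all genes were higher and 3.14% lower. At d5, 0 of 22 were higher and 4 lower, where 3.70% of all genes were higher and 14.7% lower. Median-of-ratios scaling gave 1 higher and 2 lower at d3 and 2 higher and 3 lower at d5.

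The TALE cofactors are homeodomain proteins that bind DNA together with Hox proteins. Of 9 genes, 2 were lower past the fold in each d3 library against d0, where 33.5% and 32.5% of all genes were lower, so the share was not above that of all genes. Against d3, 5 were higher at d5 fracture and 4 at d5 polytrauma, where 40.3% and 28.8% of all genes were. Median-of-ratios scaling gave 1 lower and 1 higher in each d3 library, and 2 and 4 higher at d5. Pknox1 was at 30.2 CPM at d0, 9.17 and 10.3 in the d3 libraries and 12.8 and 12.1 in the d5 libraries, so it did not share the higher d5 level. Meis1, the other gene lower at d3 and named after its values were seen, was at 3.67 CPM at d0, 1.34 and 1.71 at d3 and 4.65 and 5.38 at d5.

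Of 13 noncoding RNAs of the Hox clusters, 8 were in the files and 4 to 6 had enough UMIs. Hotair, transcribed from the Hoxc cluster, was the 1 of 4 lower past the fold in both d3 libraries, where 33.5% and 32.5% of all genes were lower. It was at 1.26 CPM at d0, 0.160 and 0.155 at d3 and 0.347 and 0.302 at d5. From d3 to d5, 2 of 4 were higher after fracture and 3 of 6 after polytrauma, where 40.3% and 28.8% of all genes were. Median-of-ratios scaling gave 1 lower and 2 higher at d3 fracture and 1 lower and 1 higher at d3 polytrauma. At d5 it gave 0 higher after fracture and 2 after polytrauma. Polycomb and trithorax genes, whose products silence the Hox clusters or keep them active, were lower past the fold in 7 of 24 cases at d3 fracture and 6 of 24 at d3 polytrauma, where 2 were higher. These shares were not above the 33.5% and 32.5% of all genes that were lower. Against d3, 13 of 24 were higher at d5 fracture and 10 of 24 at d5 polytrauma, where 40.3% and 28.8% of all genes were. Median-of-ratios scaling gave 5 lower and 2 higher at d3 fracture, 5 lower and 3 higher at d3 polytrauma, 4 higher and 1 lower at d5 fracture and 5 higher at d5 polytrauma. Kmt2a, a histone methyltransferase that maintains Hox expression, was at 33.3 CPM at d0, 18.4 and 23.1 in the d3 libraries and 58.4 and 52.8 in the d5 libraries. Kdm6b, a histone demethylase that removes the Polycomb mark, was at 485 CPM at d0, 116 and 99.5 at d3 and 155 and 126 at d5, lower than d0 in all 4 injured libraries.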

How the data were processed

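GFP+ cells were profiled with the Chromium Single Cell 3′ kit v.2. The deposited matrices hold UMI counts per gene and cell, made by the authors with Cell Ranger against mm10. Barcodes with 350 to 8000 genes, under 20% mitochondrial UMIs and at least 1000 UMIs were kept (1468 to 11941 cells and 17437190 to 202233564 UMIs per library). Counts were summed over cells and given as CPM with exact Poisson intervals, shares with exact binomial and ratios with exact conditional intervals (scipy 1.17.1), at 95%. They cover counting error only. With 1 library per condition no test was run. Each library was clustered in Seurat 5.3.0 (R 4.3.3; 2000 variable genes without the Hox, limb and marker genes, 20 components, resolution 0.5). Scrublet's own threshold marked at most 3 cells per library, so 0.8% per 1000 cells with the highest scores were left out as an alternative. Genes were named at 20 CPM or more in any library, or past 2-fold with at least 20 UMIs, and genes of groups 12 and 13 always. Some genes that the rule names are not reported here. Members, lists and clusters were chosen with earlier results of these data known. Ratio intervals were checked on Poisson counts drawn with known fold changes, without variation between cells or mice. For thinning, only the totals and limits of simulated counts were checked. The deposited identity of 2 libraries was exchanged, and the alternatives are given in the closing section.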

Additional observations from a re-analysis of the deposited data

Results flagged for a closer look

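In chondrocyte-like over FAP/MP-like cells, 2 Hox genes went opposite ways in the d5 libraries, with both counting intervals away from no change. Hoxd10 was at 3.03 against 0.716 CPM at d5 fracture (log2 2.08) and had 0 UMIs, against 162, at d5 polytrauma (at least 2-fold lower on the floor of 3 counts), so the log2 ratios differed by at least 3.08. Hoxd11 was at 2.88 against 0.920 CPM at d5 fracture (log2 1.65) and had 1 UMI against 180 at d5 polytrauma (log2 −2.74), a difference of 4.39. With 1 library per condition these differences were not tested. The chondrocyte-like cells came from a dividing and a non-dividing cluster at d5 fracture and from 1 cluster at d5 polytrauma, and the FAP/MP-like cells of d5 fracture had 7 and 9 UMIs of these genes. Over all cells of d5 fracture Hoxd10 was at 2.95 CPM and Hoxd11 at 2.35, near the chondrocyte-like levels.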

How the results depend on the processing

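No paired analysis was possible because each condition was 1 library with no replicate number, and for the same reason no library could be left out. With the conditions as deposited, d3 polytrauma against d0 had 7 Hox genes past the fold (all higher), d5 fracture against d3 fracture 3 (all lower), d3 polytrauma against d3 fracture 17 (all higher), d5 polytrauma against d3 polytrauma 7 and d5 polytrauma against d5 fracture 28. Thinning to 2000 UMIs per cell, which leaves fewer UMIs, gave 7 for d3 fracture against d0, 10 for d5 fracture against d3 fracture, 15 for d5 polytrauma against d3 polytrauma, 0 for d3 polytrauma against d3 fracture and 4 for d5 polytrauma against d5 fracture (1 higher, 3 lower). It put 5 genes at 20 CPM in place of 3 and the tenocyte-like Hox11 ratio at 0.94; resolution 0.3 put that ratio at 0.97. FAP/MP-like clusters alone gave 6 for d3 fracture against d0 (all lower) and 16 for d5 polytrauma against d5 fracture (9 higher, 7 lower). In the latter comparison, leaving out dividing cells gave 11 (6 higher, 5 lower) and 1.5-fold gave 17 (7 higher, 10 lower). For d3 polytrauma against d3 fracture, 1.5-fold gave 7, at least 5 UMIs 6 and at least 50 UMIs 1. Leaving out the Krt19-led cluster gave 6 for d5 polytrauma against d5 fracture (3 higher, 3 lower). Median-of-ratios scaling, which put the median of all genes at 0.13 in place of −0.45 at d3 fracture against d0, gave 7 lower and 1 higher there. The causes were not tested. The other 87 values stayed within 1.5 times, or within the counting interval. Leaving out dividing or hematopoietic-like cells or the Krt19-led cluster, and measuring against the median of all genes, were chosen after seeing the data. Among 88 gene ratios, 673 alternative values lay within the counting interval, 140 moved, and 67 had no value for lack of UMIs. None of those that moved changed direction in a gene past the fold. The deposited labels were not among these alternatives, and they do change directions. Under them Hoxc8 at d3 polytrauma against d0, lower past the fold above, would stand at 9.78 against 4.19 CPM.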
